A study of Mus musculus with 37 samples.

Results

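Sema3a, Sema3c, Sema3e, Sema6a, Plxna2, Plxna4, Plxnd1, Nrp1 and Nrp2 encode semaphorins, their plexin receptors and their neuropilin co-receptors. They were taken by symbol from a table of 25239 gene rows, and all 9 were found and passed the filter on low counts. Whole hearts of mouse embryos at embryonic day 10.5 were profiled by bulk paired-end RNA sequencing in 37 libraries. The embryos came from 1 cross, in which fathers with Stra8-iCre and Nipbl Flox/+ are described as giving sperm with the Flox allele, which counts as wild-type, or with the FIN allele, which is null. Mothers were Isl1 Cre/+, an allele that carries a Cre recombinase in place of 1 working copy of Isl1, which encodes a homeodomain transcription factor of cardiac progenitors. Nipbl encodes the loader of cohesin, the ring complex that shapes chromatin loops. The 4 genotypes were Nipbl +/+; Isl1 +/+ (wild-type, 10 libraries), Isl1 +/- (Isl1_het, 9), Nipbl +/- (Nipbl_het, 9) and Nipbl +/-; Isl1 +/- (double_het, 9). Both groups with Isl1 +/- carried the Isl1 Cre, and the labels do not say which embryos called Nipbl +/+ carried Flox. The comparisons ask how the loss of 1 copy of either gene, or of both, changes cardiac expression.

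Semaphorins are guidance cues that steer migrating cells and growing axons or vessels. Class 3 semaphorins are secreted and act through plexins, most of them with a neuropilin as the ligand-binding partner. Sema3e is an exception that binds plexin D1 directly, and Sema6a is a membrane-bound ligand of plexins A2 and A4. In the developing heart, Sema3c is known for drawing cardiac neural crest cells into the outflow tract, and plexin D1 in endothelium and plexin A2 in neural crest are known for roles in its septation. Nrp1 and Nrp2 also bind VEGF family ligands.

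The reads assigned to genes came to between 23.4 M and 51.0 M (1e6 reads) per library. A set number is the number after IVF in the sample descriptions. Sets 1, 2, 5 and 6 held 6, 9, 14 and 7 libraries. Sets 2, 5 and 6 held every genotype, but set 1 held only wild-type (3) and Isl1_het (3) libraries. It therefore gives no within-set difference for either Nipbl-mutant group. The CPM ranges below, and the counts of libraries above or below wild-type, take no account of set. Set 7 was a single library, double_het replicate 2. The term for that set absorbs the library whole, so the fitted double_het values below rest on 8 libraries. The descriptions also hold a second number that differs between the libraries of a set and whose meaning is not stated. The labels therefore do not say outright that each library was a separate embryo, and the p-values measure the spread between these libraries. Nipbl stood at 60.0 ± 10.1 CPM (read counts per 1e6, scaled by TMM; SD, n = 10) in wild-type, 39.3 ± 13.8 (n = 9) in Nipbl_het and 38.1 ± 7.41 (n = 9) in double_het. The library labelled Nipbl_het replicate 2 held 72.4 CPM of Nipbl, which goes against its label, and the Nipbl_het log2 change of each of the 9 genes is given also without it. Isl1 mRNA was not lower past the threshold in Isl1_het (log2 change -0.20, SE 0.18, adjusted p = 0.877 by edgeR's quasi-likelihood test with Benjamini-Hochberg adjustment). In double_het, also labelled Isl1 +/-, its log2 change was 0.32 (SE 0.20, adjusted p = 0.591). It was higher in Nipbl_het (0.79, SE 0.19, adjusted p = 0.0252 by edgeR) and in the averaged Nipbl effect (0.65, SE 0.15, adjusted p = 0.00655 by edgeR). Both of these Isl1 values include the library labelled Nipbl_het replicate 2 and are given only with it. Heart muscle markers summed to between 29760 and 44240 CPM over the wild-type libraries, and all 12 were present in every genotype.

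In wild-type hearts the receptor gene Plxnd1 and the co-receptor gene Nrp1 stood above the other 7. Levels between genes are given as CPM per kilobase of exon, the only scale here on which genes can be compared. Plxnd1 was the highest of the 9 at 30.7 ± 6.69 CPM per kilobase (SD, n = 10), and Nrp1 followed at 16.5 ± 2.49. The secreted ligand Sema3c came next at 5.60 ± 1.17, ahead of Plxna4 at 4.43 ± 0.91. Then came Sema3a at 2.87 ± 0.50 and Nrp2 at 2.73 ± 0.62, with Sema6a at 1.05 ± 0.15 and Plxna2 at 0.91 ± 0.30 below them. Sema3e, the plexin D1 ligand, was lowest at 0.152 ± 0.037 CPM per kilobase, and as few as 18 reads lay behind its value in a wild-type library. The ranges over the wild-type libraries did not overlap between Plxnd1 and Nrp1, Nrp1 and Sema3c, Nrp2 and Sema6a, or Plxna2 and Sema3e. They overlapped for Sema3c and Plxna4, Plxna4 and Sema3a, Sema3a and Nrp2, and Sema6a and Plxna2. Within single libraries, Plxna4 was above Sema3a in 10 of 10 and Sema3c above Plxna4 in 9 of 10, while Sema6a was above Plxna2 in 7 of 10 and Sema3a above Nrp2 in 6 of 10. Among 31 semaphorin, plexin and neuropilin genes in the table, ranked by mean level over the 37 libraries, Plxnd1 was 1st, Plxnb2 2nd and Nrp1 3rd.

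**Figure D1:**
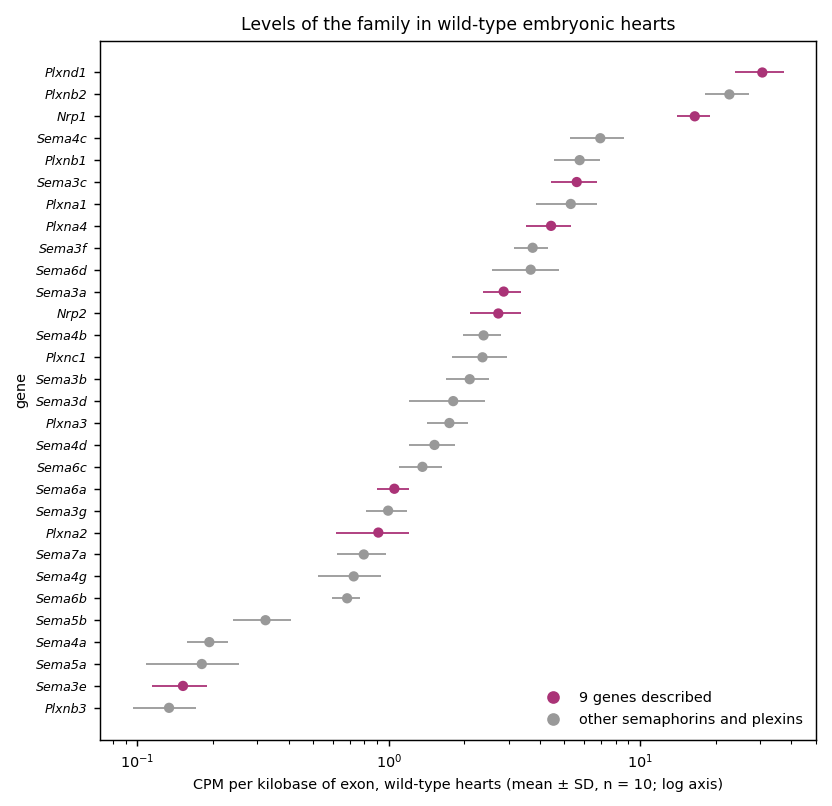
Level of semaphorin, plexin and neuropilin genes in wild-type hearts, as CPM per kilobase of exon on a log axis, with the mean and SD over 10 libraries; Sema4f, which did not pass the filter on low counts, is not drawn. Plxnd1 sits at 30.7 and Sema3e at 0.152.

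None of the 9 genes rose or fell past an adjusted p of 0.05 in any of the 8 comparisons, by edgeR's quasi-likelihood test adjusted over all 15046 genes tested. The fit held genotype and set number. Against wild-type, 0 of 9 passed in Isl1_het, where 0.0% of all genes passed, 0 of 9 in Nipbl_het, where 1.71% passed, and 0 of 9 in double_het, where 2.6% passed. Against Isl1_het, 0 of 9 passed in double_het beside 0.957% of all genes. Against Nipbl_het, 0 of 9 passed in double_het beside 0.0%. The interaction of the genotypes gave 0 of 9 beside 0.0%. The Nipbl effect averaged over Isl1 genotype gave 0 of 9 beside 4.02%, and the Isl1 effect averaged over Nipbl genotype gave 0 of 9 beside 0.173%. At shares this small, 0 of 9 is near the background of all genes. Of the 72 values, 8 had an unadjusted p under 0.05, and the smallest adjusted p was 0.0994. Those 8 were 1 of 9 in Isl1_het against wild-type, where 5.89% of all genes had such a p, 1 in Nipbl_het (15.1%), 1 in double_het (11.6%), 1 in double_het against Isl1_het (7.49%), 2 in double_het against Nipbl_het (9.01%), 0 in the interaction (2.73%), and 1 each in the averaged Nipbl effect (14.9%) and the averaged Isl1 effect (12.2%). DESeq2 on the same design also called 0 of 9 in each comparison. These comparisons share groups, wild-type above all, and are not independent of each other.

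The intervals bound how large a change could have gone unseen. For 8 of the 9 genes the 95% interval of the log2 change lay within 0.5 of 0 in every comparison except the interaction, where 5 of 9 did. The ninth gene was Sema3e, the least abundant. The median log2 change over the 9 genes was 0.03 in Isl1_het, 0.09 in Nipbl_het and 0.06 in double_het, beside 0.00, 0.01 and 0.00 over all genes tested. Without the library labelled Nipbl_het replicate 2, the Nipbl_het median was 0.06, and the log2 changes of the ligands Sema3a, Sema3c, Sema3e and Sema6a were -0.04, -0.02, 0.15 and 0.08, in place of -0.08, -0.11, 0.60 and 0.09. Those of Plxna2, Plxna4 and Plxnd1 were 0.08, 0.06 and -0.08, in place of 0.16, 0.10 and -0.06, and those of Nrp1 and Nrp2 were -0.12 and 0.12, in place of -0.17 and 0.16. None passed the threshold with or without it. In bulk hearts, fewer cells of a type and less RNA per cell cannot be told apart.

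**Figure D2:**
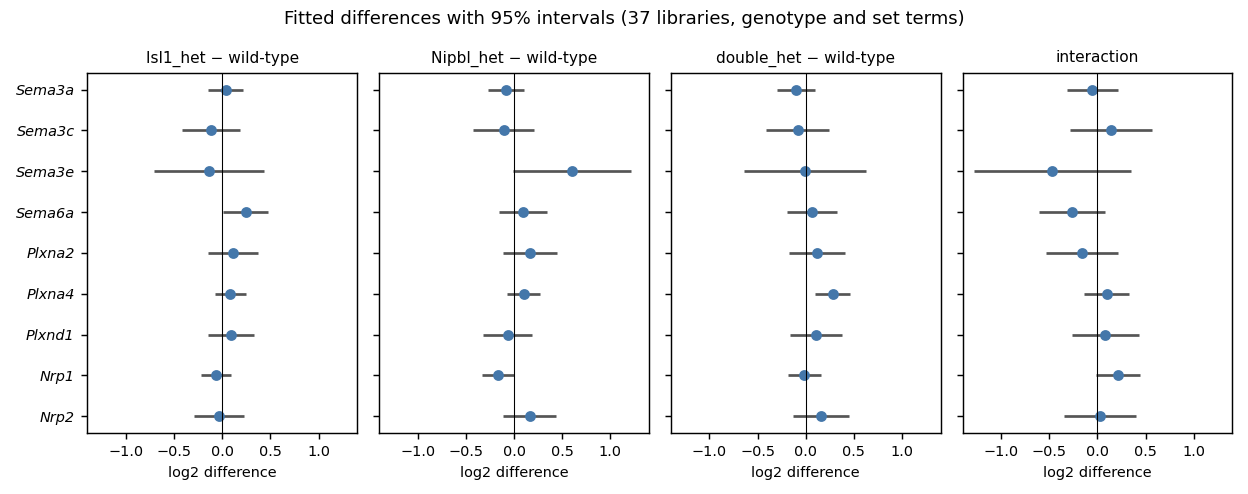
Log2 change of each gene against wild-type in the 3 mutant genotypes, and the interaction, with points for the fitted value and bars for the 95% interval. Plxna4 in double_het lies at 0.28, with an interval from 0.10 to 0.46, and no value passed the adjusted threshold.

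Among the ligands, Sema3a (chr5:13125414-13602565, plus strand, GRCm38), which repels axons through neuropilin-1 and plexin A receptors, was the steadiest secreted member. In wild-type its lowest, median and highest values were 32.7, 37.5 and 53.4 CPM. The corresponding values were 34.3, 42.3 and 48.0 in Isl1_het, 30.7, 40.2 and 52.9 in Nipbl_het, and 32.1, 42.3 and 56.0 in double_het. The 4 groups overlapped over nearly their whole range. Its log2 changes against wild-type were 0.03 (SE 0.09), -0.08 (SE 0.09) and -0.10 (SE 0.10) in Isl1_het, Nipbl_het and double_het.

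Sema3c (chr5:17574281-17730268, plus strand) was more spread within each genotype. Its lowest, median and highest values were 27.7, 41.1 and 51.1 CPM in wild-type and 24.2, 35.2 and 51.7 in Isl1_het. They were 22.2, 47.4 and 57.3 in Nipbl_het and 21.3, 44.0 and 58.4 in double_het. In both Nipbl-mutant groups 3 of 9 libraries lay above every wild-type library and 1 lay below every one. The log2 change against wild-type was -0.12 (SE 0.15) in Isl1_het, -0.11 (SE 0.16) in Nipbl_het and -0.08 (SE 0.16) in double_het. The lowest Nipbl_het value, 22.2 CPM, was that of replicate 2, and leaving it out gave -0.02. Within sets the double_het difference changed sign, at -0.45 in set 2, 0.18 in set 5 and 0.30 in set 6, the last from 1 double_het library.

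Sema3e (chr5:14025276-14256689, plus strand) had a value that 1 library set. Its lowest, median and highest values were 0.90, 1.44 and 1.97 CPM in wild-type, 0.68, 1.51 and 1.66 in Isl1_het, 1.01, 1.75 and 10.2 in Nipbl_het, and 1.02, 1.85 and 2.31 in double_het. The value of 10.2 belongs to the library labelled Nipbl_het replicate 2, and the next highest Nipbl_het library stood at 3.03 CPM. The Nipbl_het log2 change was 0.60 (SE 0.30, adjusted p = 0.343 by edgeR) with that library and 0.15 without it, and -0.15 without set 5. The difference between double_het and Nipbl_het was -0.61 (SE 0.29, adjusted p = 0.546 by edgeR), -0.05 without that library and 0.01 without set 5.

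Sema6a (chromosome 18) had its narrowest spread in Isl1_het. Its lowest, median and highest values were 7.12, 8.87 and 11.8 CPM in wild-type, 10.2, 11.2 and 11.7 in Isl1_het, 4.95, 10.0 and 13.1 in Nipbl_het, and 8.08, 9.51 and 11.8 in double_het. All 9 Isl1_het libraries lay above the wild-type mean of 9.25 CPM, but none above the highest wild-type library. The log2 change in Isl1_het was 0.24 (SE 0.12, unadjusted p = 0.0462, adjusted p = 0.835 by edgeR). Within sets 1, 2, 5 and 6 it was 0.30, 0.27, 0.34 and 0.13, the last from 1 Isl1_het library. In double_het, which also carries Isl1 +/-, it was 0.06 (SE 0.13).

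**Figure D3:**
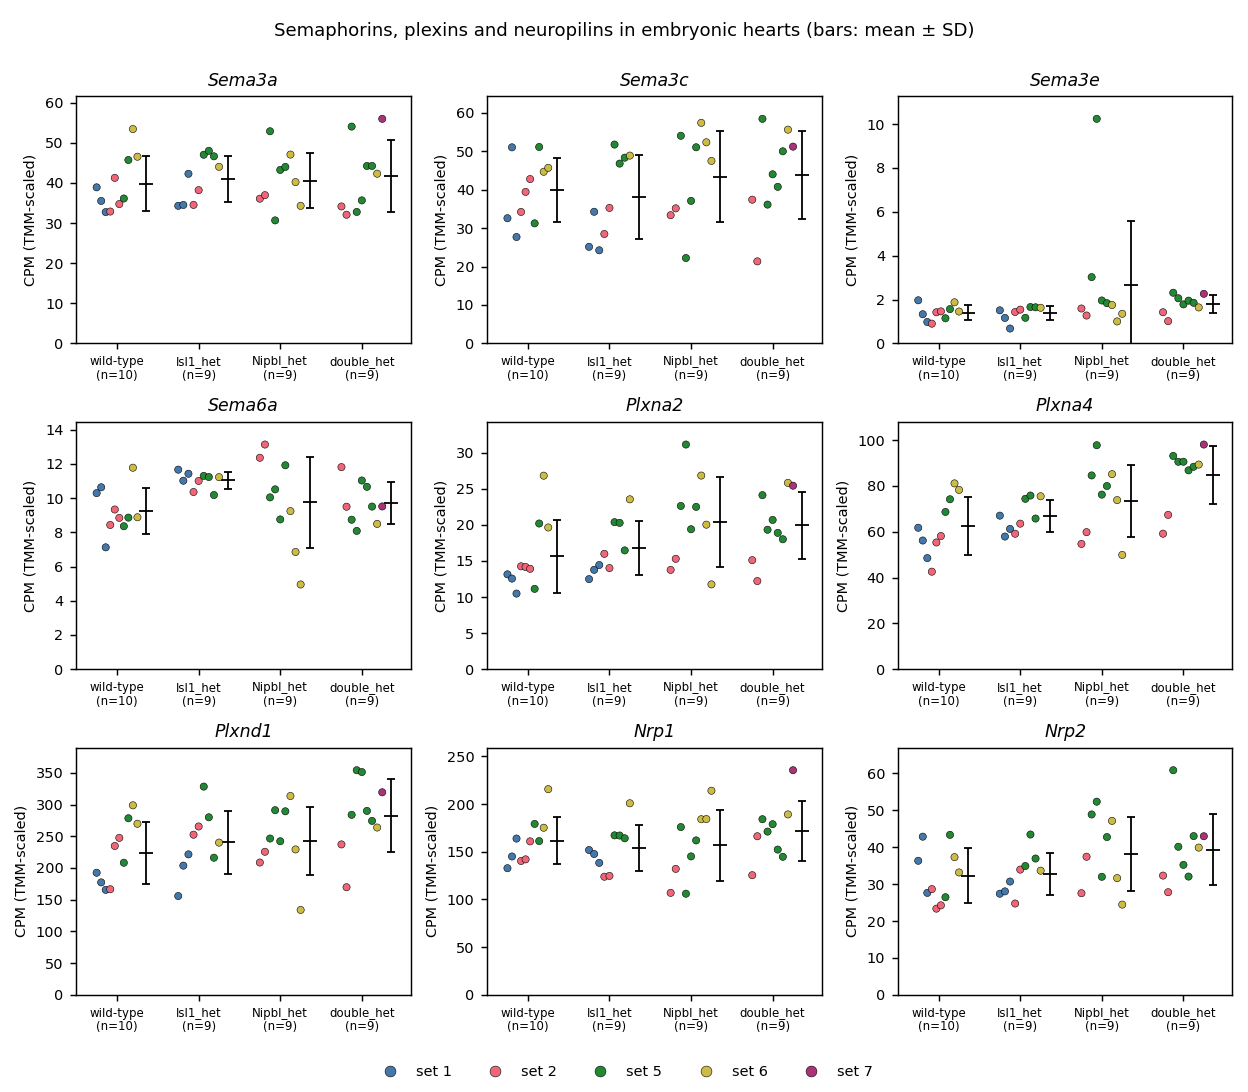
CPM of each of the 9 genes in every library, by genotype, with the mean and SD of each group and the set shown for each point; the SD bar of Sema3e in Nipbl_het is cut at 0. The library labelled Nipbl_het replicate 2 stands alone for Sema3e at 10.2 CPM, and 7 of 9 double_het libraries lie above every wild-type library for Plxna4.

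Of the plexins, Plxna4 (chr6:32144268-32588192, minus strand), a receptor for class 3 semaphorins with neuropilins and for Sema6a, came nearest to the threshold. Its lowest, median and highest values were 42.6, 59.9 and 81.1 CPM in wild-type, 57.9, 65.8 and 75.8 in Isl1_het, 49.9, 76.2 and 97.8 in Nipbl_het, and 59.1, 89.3 and 98.1 in double_het. The double_het libraries were mostly high: 7 of 9 lay above every wild-type library, and the groups overlapped through the other two. The mean was 62.5 ± 12.8 CPM (SD, n = 10) in wild-type, 66.7 ± 7.02 (n = 9) in Isl1_het, 73.5 ± 15.8 (n = 9) in Nipbl_het and 84.8 ± 12.8 (n = 9) in double_het. With set number in the fit, the double_het level was 1.21-fold that of wild-type (95% interval 1.07 to 1.37), a log2 change of 0.28 (SE 0.09, unadjusted p = 0.00347, adjusted p = 0.0994 by edgeR's quasi-likelihood test). Within sets 2, 5 and 6 the difference was 0.29, 0.33 and 0.16, positive in each, the last from 1 double_het library.

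This value crossed the threshold under some choices. Without the library labelled Nipbl_het replicate 2 the log2 change was 0.28 with an adjusted p of 0.0351 by edgeR, and without set 6 it was 0.32 with 0.0322. Without a set term it was 0.44 with an adjusted p of 0.0229, and with the replicate number as a block in place of the set term it was 0.44 with 0.0485. It moved away from the threshold without set 1 (0.25, adjusted p = 0.279), without set 2 (0.27, adjusted p = 0.366) and without set 5 (0.23, adjusted p = 0.756). Over the 11 alternatives the adjusted p ran from 0.0229 to 0.756. Plxna4 also differed between sets: it averaged 57.7 ± 6.89 CPM in set 2 (n = 9) and 81.9 ± 9.71 in set 5 (n = 14), and 5 of the 9 double_het libraries but only 2 of the 10 wild-type libraries belonged to set 5. Against Isl1_het and Nipbl_het the double_het log2 changes were 0.19 (SE 0.09) and 0.18 (SE 0.09), or 0.20 and 0.22 without the library labelled Nipbl_het replicate 2, and the interaction was 0.09 (SE 0.12). The 9 marker lists differed in how they moved in double_het, where 2.6% of all genes passed the threshold and 11.6% had an unadjusted p under 0.05. Of 10 epicardial markers, 10 had a positive log2 change and 5 passed the adjusted threshold, with a median of 0.49, and they summed to 802 to 1307 CPM there and 557 to 759 in wild-type. Of 12 endothelial and endocardial markers, 12 had a positive log2 change and 0 passed by edgeR, with 2 at an unadjusted p under 0.05 and a median of 0.16, and they summed to 996 to 1329 CPM against 883 to 1096. Of 8 tested neuronal markers, 5 had a positive log2 change and 0 passed by edgeR, with 3 at an unadjusted p under 0.05 and a median of 0.19. The 12 listed neuronal genes summed to 45.2 to 71.6 CPM against 42.3 to 72.6, with Neurog1 at 0 in every library. In the averaged Nipbl effect 2 of the 8 tested neuronal markers passed as higher, beside 4.02% of all genes in either direction. So did 3 of 10 epicardial and 2 of 12 second heart field markers, and 1 of 12 cushion mesenchyme markers passed as lower. In double_het the second heart field and outflow tract list had 8 of 12 positive, 1 past the threshold as higher and a median of 0.27. The erythroid list had 7 of 8 tested genes positive with a median of 0.69, and the liver and foregut list 3 of 4 with a median of 1.20; 0 of either passed by edgeR or had an unadjusted p under 0.05. Heart muscle (4 of 12 positive), neural crest (4 of 7) and cushion mesenchyme (6 of 12) had medians of -0.04, 0.01 and -0.04, with 0, 0 and 1 past the threshold as higher by edgeR and 3, 1 and 2 at an unadjusted p under 0.05. The part of these markers in the Plxna4 value was not tested. In the M21 gene models 110 exon bases of Plxna4, 0.78% of its exons, lie opposite exons of the antisense gene Plxna4os3, and reads there cannot be told apart without strand.

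Plxnd1 (chr6:115954811-115995005, minus strand), the receptor of Sema3e and, with neuropilins, of other class 3 semaphorins, spanned 165 to 299 CPM in wild-type with a median of 221. The ranges were 156 to 328 CPM (median 240.0) in Isl1_het, 134 to 313 (median 242) in Nipbl_het and 170 to 354 (median 284) in double_het. In double_het 3 of 9 libraries lay above every wild-type library. The double_het log2 change was 0.11 (SE 0.13). Within sets 2, 5 and 6 it was -0.09, 0.36 and -0.11, the last from 1 double_het library. Plxna2 (chr1:194618218-194816869, plus strand) ranged from 10.5 to 26.8 CPM (median 14.0) in wild-type, 12.5 to 23.5 (median 16.0) in Isl1_het, 11.8 to 31.1 (median 20.0) in Nipbl_het and 12.2 to 25.8 (median 19.3) in double_het. Its highest value, 31.1 CPM, was again that of the library labelled Nipbl_het replicate 2, without which the Nipbl_het log2 change was 0.08. The log2 changes against wild-type were 0.11 (SE 0.13), 0.16 (SE 0.14) and 0.11 (SE 0.14) in Isl1_het, Nipbl_het and double_het.

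Of the co-receptors, Nrp1 (chr8:128358604-128503363, plus strand) was lower in Nipbl_het only before adjustment. Its lowest, median and highest values were 133, 161 and 216 CPM in wild-type, 124, 152 and 201 in Isl1_het, 106, 162 and 214 in Nipbl_het, and 125, 171 and 235 in double_het. The ranges overlapped widely, and in Nipbl_het 3 of 9 libraries were under the lowest wild-type value. The Nipbl_het log2 change was -0.17 (SE 0.08, unadjusted p = 0.0449, adjusted p = 0.316 by edgeR), with -0.31, -0.23 and -0.01 within sets 2, 5 and 6. The lowest of all 37 for Nrp1 was the library labelled Nipbl_het replicate 2, and leaving it out gave -0.12 (SE 0.07, unadjusted p = 0.104 by edgeR). With no set term the value was -0.04. In double_het the log2 change was -0.02 (SE 0.08). The interaction was 0.22 (SE 0.11, adjusted p = 0.999 by edgeR), or 0.16 (SE 0.10) without the library labelled Nipbl_het replicate 2. Within the exons of Nrp1 lie the 80 bases of Mir1903, 0.818% of them.

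Nrp2 (chr1:62703285-62818695, plus strand) had lowest, median and highest values of 23.4, 30.9 and 43.4 CPM in wild-type, 24.8, 33.7 and 43.4 in Isl1_het, 24.5, 37.4 and 52.4 in Nipbl_het, and 27.8, 39.9 and 60.9 in double_het. In Nipbl_het 3 of 9 libraries lay above every wild-type library, and in double_het 1 of 9 did. The log2 change was 0.16 (SE 0.14) in Nipbl_het and 0.16 (SE 0.14) in double_het. Averaged over Isl1 genotype, the Nipbl effect was 0.17 (SE 0.10, adjusted p = 0.468 by edgeR).

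Most of the 9 genes differed between sets. A difference between sets passed an adjusted p of 0.05 for 7 of 9 genes by edgeR, beside 38.2% of all genes, and not for Sema3e (adjusted p = 0.131) or Sema6a (adjusted p = 0.496). The set means that follow are not adjusted for genotype, and the mix of genotypes differed between sets. Sets 5 and 6 stood above sets 1 and 2 for Sema3c. It averaged 32.5 ± 9.90, 34.1 ± 6.23, 44.4 ± 9.93 and 50.2 ± 4.92 CPM in sets 1, 2, 5 and 6. Plxna2 followed the same order of sets, at 12.8 ± 1.36, 14.3 ± 1.08, 20.4 ± 4.39 and 22.1 ± 5.45 CPM. Of the 4 sets with more than 1 library, Nrp1 was highest in set 6, at 195 ± 15.7 CPM, and lowest in set 2, at 136 ± 18.8; the single library of set 7 stood at 235 CPM. What a set number marks is not given beyond its place after IVF in the descriptions.

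Once the set means were taken out, the plexins correlated positively with each other from library to library by Pearson's r. Nrp1 correlated negatively by Pearson's r with Plxna2, Sema6a and Sema3e, pairs that did not pass the threshold by Spearman's rho. All 36 pairs among the 9 genes were correlated on log2 CPM over the 36 libraries of sets with more than 1 library, genotype means left in, with p from 100000 permutations within sets and Benjamini-Hochberg adjustment over the pairs. By Pearson's r, 16 pairs passed an adjusted p of 0.05, 13 of them positive and 3 negative. Fewer pairs passed that threshold by Spearman's rho, and every one of those was positive. Correlation is common in these data: with a prior count of 2, an r of 0.5 or more was found in 10 of the 36 pairs (27.8%) and in 10.9% of all 113183535 pairs of tested genes. An r of -0.5 or less was found in 1 of the 36 pairs (2.78%) and in 10.7% of all pairs. Plxna2 and Plxnd1 had the highest r, at 0.685 (permutation p = 0.00016, adjusted p = 0.00192), with a Spearman's rho of 0.526 (permutation p = 0.00188, adjusted p = 0.0246). Within sets 1, 2, 5 and 6 their r was 0.781, 0.553, 0.513 and 0.94, without the 2 libraries farthest from the median it was 0.448, and without the library labelled Nipbl_het replicate 2 it was 0.731. Plxna2 and Nrp2 followed with r = 0.677 (permutation p = 3e-05, adjusted p = 0.00108) and rho = 0.578 (permutation p = 0.00043, adjusted p = 0.0155), and r was 0.531 without the 2 farthest. That relation was weak in sets 1 and 2, at 0.16 and 0.177, and strong in sets 5 and 6, at 0.772 and 0.909.

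Plxna2 and Plxna4 had r = 0.662 (permutation p = 0.00014, adjusted p = 0.00192) and rho = 0.431 (permutation p = 0.0142, adjusted p = 0.056), and r = 0.47 without the 2 farthest. In set 2 this relation was -0.211, so it did not hold in every set. The ligand Sema6a and its receptor Plxna2 had r = 0.601 (permutation p = 0.00067, adjusted p = 0.00482) and rho = 0.492 (permutation p = 0.00528, adjusted p = 0.0317), 0.399 without the 2 farthest, and were positive in all 4 sets. Nrp1 gave the 3 negative pairs. With Plxna2 its r was -0.476 (permutation p = 0.00659, adjusted p = 0.02) and rho -0.32 (permutation p = 0.0555, adjusted p = 0.117), negative in all 4 sets, at -0.482 without the 2 farthest and -0.31 without the library labelled Nipbl_het replicate 2. With Sema6a it was -0.366 (permutation p = 0.0126, adjusted p = 0.0285), rho -0.365 (permutation p = 0.0348, adjusted p = 0.101), and -0.305 without the 2 farthest. With Sema3e it was -0.585 (permutation p = 0.00667, adjusted p = 0.02), rho -0.35 (permutation p = 0.0389, adjusted p = 0.101), -0.32 without the 2 farthest and -0.219 without that library. Sema3c, the main secreted ligand by level, had no pair past the threshold except with Sema3a (r = 0.529, permutation p = 0.00158, adjusted p = 0.00813; rho = 0.495, permutation p = 0.00371, adjusted p = 0.0317; r = 0.352 without the 2 farthest), and that pair was negative in sets 1 and 6.

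**Figure D4:**
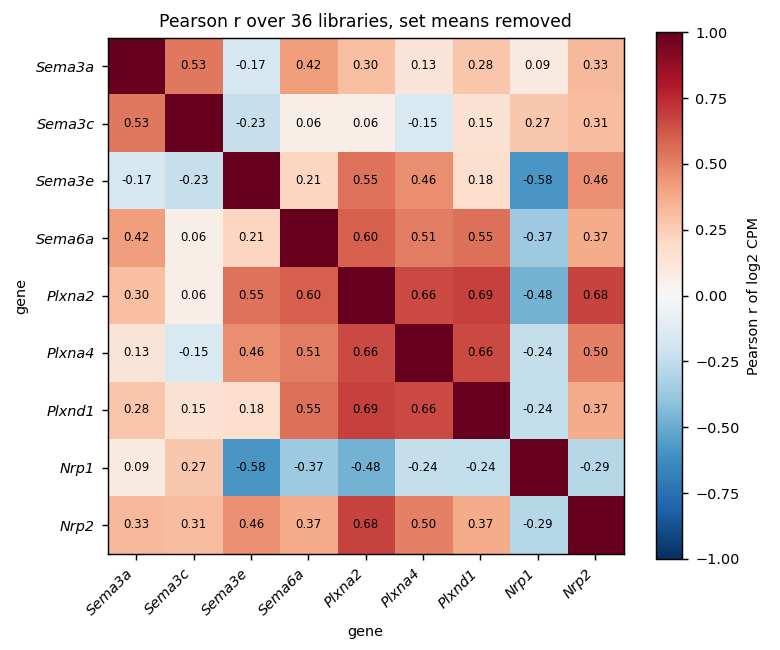
Pearson's r between each pair of the 9 genes over 36 libraries, with set means removed. Plxna2, Plxna4 and Plxnd1 form positive pairs of 0.661 to 0.685. Nrp1 is negative with Sema3e at -0.585, or -0.219 without the library labelled Nipbl_het replicate 2, and that pair did not pass by Spearman's rho.

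Plxnd1 and Nrp2 had the highest correlations with Plxna2. Nrp1 and Plxna2 had a Pearson's r of -0.476, or -0.31 without the library labelled Nipbl_het replicate 2. That pair did not pass by Spearman's rho. The promoters of Plxna2, Plxnd1, Nrp2 and Nrp1 are shown so that their letters can be compared. Each is the 250 bases before the gene's RefSeq start on GRCm38.p6, written 5′ to 3′ on the gene's own strand, with capitals at each GC box, searched as GGGCGG and its reverse complement CCGCCC. The RefSeq promoter table used here matched 7 of the 9 genes.
Plxna2 promoter, chr1:194619579-194619828, plus strand: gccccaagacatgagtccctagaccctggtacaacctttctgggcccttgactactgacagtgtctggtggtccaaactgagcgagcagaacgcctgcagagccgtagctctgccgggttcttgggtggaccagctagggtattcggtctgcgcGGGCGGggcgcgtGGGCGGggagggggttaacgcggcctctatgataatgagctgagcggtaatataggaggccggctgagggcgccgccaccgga
Plxnd1 promoter, chr6:115995006-115995255, minus strand: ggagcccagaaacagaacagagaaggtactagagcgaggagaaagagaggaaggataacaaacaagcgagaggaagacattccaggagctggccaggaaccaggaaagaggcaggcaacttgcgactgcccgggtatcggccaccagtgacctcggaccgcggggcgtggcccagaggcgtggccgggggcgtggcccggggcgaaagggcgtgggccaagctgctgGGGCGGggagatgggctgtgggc
Nrp2 promoter, chr1:62703067-62703316, plus strand: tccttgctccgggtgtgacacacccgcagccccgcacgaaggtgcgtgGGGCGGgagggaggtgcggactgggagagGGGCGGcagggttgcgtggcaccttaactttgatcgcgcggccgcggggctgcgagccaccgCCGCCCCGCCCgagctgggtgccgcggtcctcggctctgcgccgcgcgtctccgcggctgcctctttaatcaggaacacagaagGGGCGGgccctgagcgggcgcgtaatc
Nrp1 promoter, chr8:128358823-128359072, plus strand: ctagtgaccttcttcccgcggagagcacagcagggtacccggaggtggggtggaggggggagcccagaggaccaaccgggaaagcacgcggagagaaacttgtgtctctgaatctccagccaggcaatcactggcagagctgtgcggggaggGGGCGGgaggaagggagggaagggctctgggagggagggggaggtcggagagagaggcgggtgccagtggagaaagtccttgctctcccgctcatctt
The window of Nrp2 held 5 GC boxes, 2 of them overlapping, that of Plxna2 held 2, and those of Plxnd1 and Nrp1 held 1 each. Of all 32851 RefSeq promoters of the same length, 32.7% held at least 1. Sema3c held 3, Sema3e 2 and Sema3a 0. The RefSeq starts used here differ from the M21 starts given above for some genes. The windows of Plxna2, Nrp1, Sema3c and Sema3a lie inside the M21 spans of these genes, and that of Nrp2 overlaps its span. The Sema3a window, chr5:13396534-13396783, lies far inside. The GC content was 62.8% in Plxna2, 64.8% in Plxnd1, 72.4% in Nrp2 and 64.4% in Nrp1, against a median of 52.4% over the 32851 promoters. A GATA core searched as AGATAA and TTATCT was in none of the 7 windows and in 9.99% of the 32851. A match describes letters and does not show that a factor binds there.

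Elsewhere in the family, 2 secreted semaphorins rose and 1 membrane-anchored one fell in double_het hearts. Of 21 tested members of a list of 22 other semaphorins and plexins, Sema3d and Sema3f rose and Sema7a fell against wild-type, beside 2.6% of all genes in either direction. The median log2 change over the list was 0.09, beside 0.00 over all genes. Sema3d, known from the epicardium and from pulmonary vein patterning, had lowest, median and highest values of 8.10, 16.5 and 22.4 CPM in wild-type and 18.1, 29.1 and 35.4 in double_het. In 8 of 9 double_het libraries it lay above every wild-type library, and its log2 change was 0.73 (SE 0.17, adjusted p = 0.0109 by edgeR). Sema3f, a ligand of neuropilin-2, went from 14.6, 20.2 and 24.3 CPM in wild-type to 22.6, 29.5 and 33.6 in double_het, with 8 of 9 libraries above every wild-type library. Its log2 change was 0.54 (SE 0.12, adjusted p = 0.0102 by edgeR), and its Nipbl effect averaged over Isl1 genotype was 0.32 (SE 0.09, adjusted p = 0.0344), a call that was lost without the filter on low counts and without each of sets 1, 2, 5 and 6, where the value was 0.32, 0.31, 0.25, 0.34 and 0.36. Sema7a, held to the membrane by a lipid anchor, had 1.69, 2.68 and 3.49 CPM in wild-type and 1.26, 1.83 and 2.22 in double_het. All 9 double_het libraries lay below its wild-type mean, at a log2 change of -0.58 (SE 0.15, adjusted p = 0.0263 by edgeR).

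Sema3d lies on chromosome 5 with Sema3a, Sema3e and Sema3c, from 12383385 to 12588948 on the plus strand. The log2 changes of those 3 neighbours in double_het were -0.10, -0.01 and -0.08, and whether they differ from that of Sema3d was not tested. Of 10 epicardial markers, 5 passed the threshold as higher in double_het and all 10 had a positive log2 change. They summed to 802 to 1307 CPM there and 557 to 759 in wild-type, ranges that do not overlap. All 12 endothelial and endocardial markers were positive in double_het too, with 0 past the threshold by edgeR. The other marker lists are given above with Plxna4. Whether any of the lists followed Sema3d from library to library was not tested. In the averaged Nipbl effect, 3 of 10 epicardial, 2 of 12 second heart field and 2 of 8 tested neuronal markers passed as higher. There 1 of 12 cushion mesenchyme markers passed as lower, beside 4.02% of all genes in either direction. The part of these markers in the Sema3d and Sema3f values was not tested. These calls depended on single sets: without set 5 the log2 changes of Sema3d, Sema3f and Sema7a were 0.54, 0.46 and -0.37, and none passed. The change of Sema3d without set 6 was 0.73, that of Sema7a without set 6 was -0.62 and that of Sema3f without set 2 was 0.49, and these did not pass either. In the other 4 comparisons between 2 genotypes, the interaction and the averaged Isl1 effect, 0 of 21 passed by edgeR. At an unadjusted p under 0.05 there were 8 of 21 in double_het against wild-type, beside 11.6% of all genes, 2 in Isl1_het (5.89%) and 4 in Nipbl_het (15.1%). There were 4 in double_het against Isl1_het (7.49%), 5 in double_het against Nipbl_het (9.01%), 0 in the interaction (2.73%), 6 in the averaged Nipbl effect (14.9%) and 4 in the averaged Isl1 effect (12.2%). DESeq2 called 1 in Nipbl_het and 2 in the averaged Isl1 effect.

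**Figure D5:**
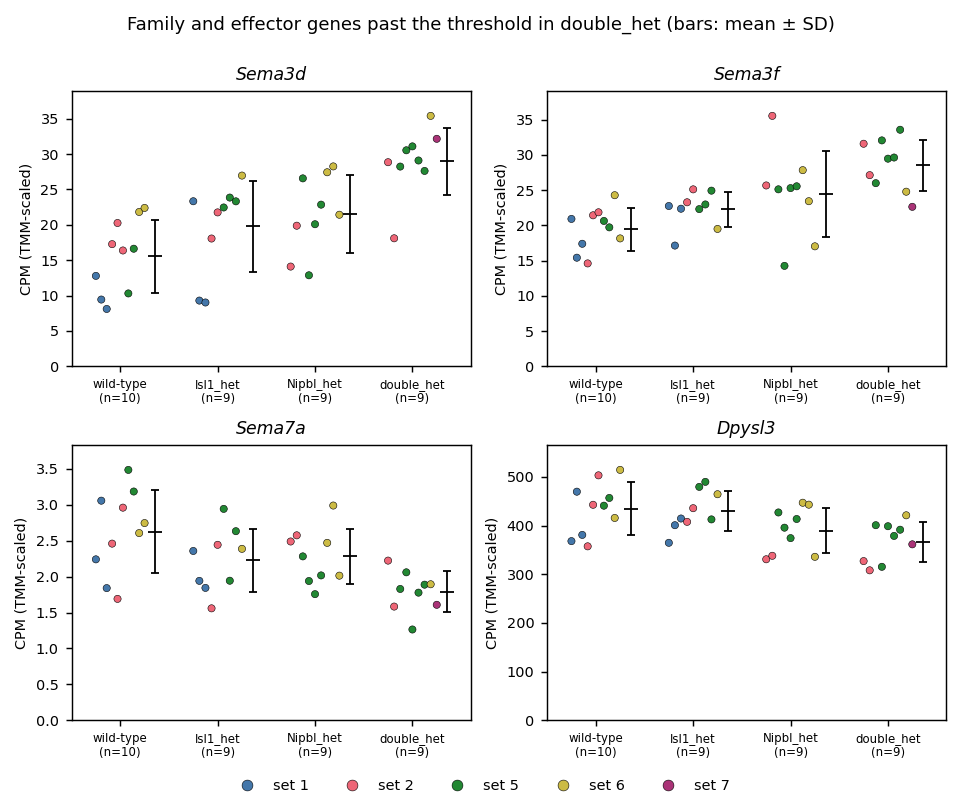
CPM in every library, by genotype, of Sema3d, Sema3f, Sema7a and Dpysl3, with the mean and SD of each group. In double_het, 8 of 9 libraries lie above every wild-type library for Sema3d and for Sema3f, and all 9 lie below the wild-type mean for Sema7a and Dpysl3.

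Downstream of the receptors, Dpysl3, which encodes a collapsin response mediator protein of the semaphorin pathway, was the only 1 of 32 listed effector genes past the threshold in double_het, beside 2.6% of all genes, so the count is near the background. Its lowest, median and highest values were 357, 442 and 514 CPM in wild-type and 308, 379 and 421 in double_het. All 9 double_het libraries lay below the wild-type mean of 435 CPM, and 3 of them under its lowest value. The log2 change was -0.32 (SE 0.08, adjusted p = 0.0147 by edgeR) against wild-type and -0.30 (SE 0.08, adjusted p = 0.0475) against Isl1_het. Without a set term the first of these was -0.25 and did not pass, nor did it at -0.22 with the replicate block, -0.26 without set 2 or -0.34 without set 5. The second was lost under the same 4 choices, at -0.23, -0.23, -0.25 and -0.31 in that order. It was also lost without the filter on low counts (-0.30) and without set 1 (-0.31). Averaged over Isl1 genotype, the Nipbl effect was -0.27 on Dpysl3 (SE 0.06, adjusted p = 0.00228 by edgeR) and 0.57 on its relative Dpysl5 (SE 0.13, adjusted p = 0.00598), 2 of the 32 beside 4.02% of all genes. In that comparison 2 of 8 tested neuronal markers also passed as higher, with a median of 0.24 over the 8. Of the other marker lists, 3 of 10 epicardial and 2 of 12 second heart field markers passed as higher, and 1 of 12 cushion mesenchyme markers as lower. The part of these markers in the Dpysl3 and Dpysl5 values was not tested. Dpysl5 stood at 53.5 CPM in the library labelled Nipbl_het replicate 2 against a Nipbl_het median of 19.2, and without that library its averaged Nipbl effect was 0.49 (adjusted p = 4.172e-04 by edgeR). Without set 2 and without set 5 neither averaged effect passed, at -0.22 and -0.30 for Dpysl3 and 0.62 and 0.38 for Dpysl5, and that on Dpysl3 did not pass with the replicate block (-0.18) either. Of 8 VEGF ligands and receptors, 0 passed by edgeR in double_het, beside 2.6% of all genes, or in Nipbl_het, beside 1.71%. At an unadjusted p under 0.05 there was 1 of 8 in each, beside 11.6% and 15.1% of all genes, which is near the background.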

How the data were processed

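Total RNA of whole hearts was made into libraries with a NEBNext Ultra II kit, per the labels' protocols. The authors deposited whole-number read counts per gene; STAR, featureCounts and the builds GRCm38 and mm10 are named in the submitters' processing notes, while versions, annotation, strand setting and filters are not given in the sources used here. The 37 count columns were matched to samples by their labels. Of 25239 rows, 4273 were 0 throughout, and 15046 passed filterByExpr (minimum count 10, minimum total 15). Genes were tested with edgeR 4.0.16 (R 4.3.3): TMM scaling, glmQLFit on genotype plus set number over all 37 libraries, two-sided quasi-likelihood tests, Benjamini-Hochberg adjustment over all tested genes and a threshold of 0.05. CPM per kilobase used the union of GENCODE M21 exons. Correlations among the 9 genes used log2 CPM with no pseudocount, and those over all pairs of tested genes a prior count of 2. Steps were tested on simulated data. The 9 genes and all lists were chosen with earlier results of these data known. Other genes are named if on a list and past the threshold; genes most like a member would be named only for a member past it, which gave none. Alternatives were DESeq2 1.42.0, RLE scaling, no filter on low counts, no set term, a replicate block, and leaving out sets or a library.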

Additional observations from a re-analysis of the deposited data

Results flagged for a closer look

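In 36 groups of 1 gene in 1 genotype, each with 9 or 10 libraries, a library stood far from the others of its group by Dixon's test in 3; chance alone flags about 1 in 20. Sema3e reached 10.24 CPM in the library labelled Nipbl_het replicate 2, with the next highest at 3.03. Sema3e in Isl1_het replicate 3 was low at 0.6805 CPM, with the next lowest at 1.17. Nrp2 in double_het replicate 1 was high at 60.87 CPM, with the next highest at 43.0.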

How the results depend on the processing

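The counts of the 9 genes and of the other family genes past the threshold in the 8 genotype comparisons, and the log2 changes, were recomputed under 11 alternatives. The set differences were not, and the correlations were recomputed only within sets, without the 2 farthest libraries and without the library labelled Nipbl_het replicate 2. Of the 9 genes, 1 passed in double_het against wild-type, in place of 0, with no set term, with the replicate block, without the library labelled Nipbl_het replicate 2 and without set 6, and 1 passed for the averaged Nipbl effect with no set term. Over the 792 recomputed log2 changes of the 9 genes, 94 changed sign, and the largest main value among those was 0.608 in size. No value of the 9 genes had passed in the main fit, so no call could turn direction. The only value that turned direction with an unadjusted p under 0.05 was Sema3e in double_het against Nipbl_het, 0.0092 without set 5. Of the 21 other family genes, Nipbl_het against wild-type gave 1 in place of 0 with no set term, the replicate block, DESeq2, without the library labelled Nipbl_het replicate 2 and without set 6. For double_het against wild-type the count was 5 with the replicate block, 0 without set 5 and 1 without set 6. Against Isl1_het it was 1 with the replicate block. The averaged Nipbl effect gave 4 with no set term and 4 with the replicate block, and 0 without each of sets 1, 2, 5 and 6; the averaged Isl1 effect gave 2 with DESeq2. The cause of these differences was not tested. Of 88 recomputed values of the other pathway genes, 26 lost the call and 0 changed sign. Replicate numbers did not pair the samples: over 54 pairs of libraries with the same number, r ran from -0.449 to 0.554 with a median of 0.0279. Sema3e rested on 18 to 375 reads per library, the fewest of the 9 genes.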

Other observations

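Extreme values in the wider family fell on few libraries. Of 31 semaphorin, plexin and neuropilin genes, the library labelled Nipbl_het replicate 2 was the highest of 37 libraries for 13 and the lowest for 4, among them Nrp1 and Sema3a. Nipbl_het replicate 8 and wild-type replicate 3 were the lowest for 8 genes each and the highest for 0, and double_het replicate 8 was the lowest for 6. In the library labelled Nipbl_het replicate 2, Sema4g was at 52.4 CPM and between 3.33 and 18.7 in the other 36 libraries, Sema4d at 44.2 against 7.27 to 20.8, and the receptor Plxnb2 at 425 against 127 to 262. The 8 VEGF ligands and receptors summed to 1790 CPM in that library and to between 317 and 590 CPM in the other 36. These genes were chosen after their values were seen.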
